A study of Mus musculus with 16 samples.

Results

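The 9 genes described here, out of 25719 in the deposited liver expression table, carry the time signal of the circadian clock to other genes. They were picked by name, with earlier results of these data known, as Noct, Dbp, Tef, Hlf, Nfil3, Ciart, Bhlhe40, Bhlhe41 and Usp2, and all 9 were measured in every mouse. Noct was brought in because it stood out in earlier results, so its differences between groups are described with no test, and the counts of tested members are over the 8 others. Whole-liver RNA came from 16 male mice that the methods give as 8 to 12 weeks old when put on the diets, either WT mice of the strain C57BL6J or mice without Klrk1 (Klrk1-/-, labelled Klrk1 KO of the strain NKG2D), the gene of the activating receptor NKG2D of lymphocytes. The lines were kept as breeding colonies, and whether the mice compared were littermates is not given in the sources used here, so the loss of Klrk1 and other differences between the lines cannot be told apart. They were fed either normal chow (NCD) or SSD, a steatosis and steatohepatitis diet rich in animal fat, fructose and cholesterol, for 3 weeks and without restriction. There were 4 WT mice on NCD, numbered 1, 2, 3 and 5, 5 WT mice on SSD, 4 Klrk1-/- mice on NCD and 3 Klrk1-/- mice on SSD, and each library is 1 mouse. The study's purpose for this part was to see which liver transcripts change early on SSD and which of them depend on NKG2D.

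The liver clock is a loop in which BMAL1 (gene Arntl) and CLOCK switch on genes with an E-box in their promoters, among them the Per and Cry genes, whose proteins then switch BMAL1 and CLOCK off. Dbp, Tef and Hlf are transcription factors of the PAR bZIP family that bind the D-box, and Nfil3 encodes the repressor that competes with them for that site. Ciart, Bhlhe40 and Bhlhe41 encode repressors that act back on BMAL1 and CLOCK, Usp2 encodes a ubiquitin protease that acts on clock proteins, and Noct encodes nocturnin, a rhythmic relative of the CCR4 deadenylases that removes a phosphate from NADP(H). In mouse liver these transcripts, Dbp above the others, rise and fall within each day, and feeding shifts them. The hour at which each liver was taken is not given in the sources used here. Collection time therefore cannot be told apart from diet or genotype in any difference below, and its part was not tested.

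On GRCm39, as the deposited table gives them, Noct spans chromosome 3 from 51131868 to 51159065 on the plus strand, and Ciart lies on the minus strand of the same chromosome from 95785815 to 95789563. Bhlhe40 (108637590 to 108643886, plus strand) and Bhlhe41 (145803969 to 145811284, minus strand) are both on chromosome 6. Dbp is on chromosome 7 (45354512 to 45359627, plus), Usp2 on chromosome 9 (43978318 to 44006924, plus) and Hlf on chromosome 11 (90227362 to 90281721, minus). Nfil3 is on chromosome 13 (53121245 to 53135109, minus) and Tef on chromosome 15 (81686622 to 81711064, plus). Each shares its span with at least 1 other gene in the GENCODE annotation at hand, a later release than the authors'. Exons of Dbp share 539 bases with the oppositely oriented Sphk2, those of Usp2 share 890 with Gm39325, those of Noct share 641 with Gm65789 and those of Bhlhe41 share 1583 with Gm43909. Whether reads were counted by strand is not stated, so reads from such stretches cannot be told apart.

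Promoter windows of 300 bases, 250 before and 50 after the transcript start, were available for 8 members (RefSeq, table build GRCm38.p6, placed on GRCm39 by an exact unique match). Bhlhe40 had no entry. The E-box, CACGTG, was found in the windows of Ciart, Bhlhe41 and Tef, which makes 3 of 8 members where 7.15% of the 32851 windows searched held it. The member count is per gene and the share is per window. Tef had windows starting at 81686624 and at 81695365, both with an E-box. The windows of Noct and Usp2 are shown because these genes had the widest differences between groups, that of Ciart for its 3 E-boxes, that of Nfil3 for a ROR and REV-ERB core (TAGGTCA, read on the opposite strand) and that of Hlf for a cAMP element (TGACGTCA). The matches are in capitals, the first base of each window is its 5′ end on the gene's own strand, and the windows of Noct and Usp2 hold no match.

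Noct (chr3:51131618-51131917, plus strand): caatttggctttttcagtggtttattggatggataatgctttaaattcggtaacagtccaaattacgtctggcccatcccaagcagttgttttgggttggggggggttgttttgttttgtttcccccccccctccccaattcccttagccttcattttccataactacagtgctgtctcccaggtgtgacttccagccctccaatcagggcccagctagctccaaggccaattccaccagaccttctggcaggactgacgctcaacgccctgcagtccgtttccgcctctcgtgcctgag

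Usp2 (chr9:43995967-43996266, plus strand): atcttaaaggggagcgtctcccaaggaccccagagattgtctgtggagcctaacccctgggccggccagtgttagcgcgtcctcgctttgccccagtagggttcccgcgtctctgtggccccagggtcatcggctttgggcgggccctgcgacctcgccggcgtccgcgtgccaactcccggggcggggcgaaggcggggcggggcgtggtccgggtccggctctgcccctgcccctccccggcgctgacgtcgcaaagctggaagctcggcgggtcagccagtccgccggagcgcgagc

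Ciart (chr3:95789491-95789790, minus strand): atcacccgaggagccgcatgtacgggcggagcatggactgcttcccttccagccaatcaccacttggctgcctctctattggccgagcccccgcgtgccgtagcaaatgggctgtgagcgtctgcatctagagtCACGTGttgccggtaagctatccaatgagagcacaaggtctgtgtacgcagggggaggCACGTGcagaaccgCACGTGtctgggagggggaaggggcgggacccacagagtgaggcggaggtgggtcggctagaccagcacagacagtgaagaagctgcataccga

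Nfil3 (chr13:53135026-53135325, minus strand): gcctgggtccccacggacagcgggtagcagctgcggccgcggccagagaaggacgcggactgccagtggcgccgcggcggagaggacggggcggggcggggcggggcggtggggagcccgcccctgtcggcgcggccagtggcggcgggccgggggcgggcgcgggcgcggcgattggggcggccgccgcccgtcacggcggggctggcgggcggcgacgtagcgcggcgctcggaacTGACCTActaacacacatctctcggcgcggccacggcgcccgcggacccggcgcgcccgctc

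Hlf (chr11:90281694-90281993, minus strand): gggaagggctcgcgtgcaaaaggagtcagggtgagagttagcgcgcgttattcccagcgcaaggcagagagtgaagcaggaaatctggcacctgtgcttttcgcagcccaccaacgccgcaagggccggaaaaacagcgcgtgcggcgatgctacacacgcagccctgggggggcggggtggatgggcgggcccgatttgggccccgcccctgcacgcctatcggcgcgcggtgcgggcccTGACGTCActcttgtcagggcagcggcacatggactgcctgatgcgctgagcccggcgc

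The E-boxes of Ciart begin 116, 58 and 44 bases before the transcript start. The ROR and REV-ERB core (TAGGTCA or TGGGTCA), at 6.45% of all windows, begins 12 bases before the start of Nfil3, and the cAMP element, at 1.79%, begins 9 bases before that of Hlf. The palindromic motifs read alike on both strands, and the other motifs were searched on both. The letters of the D-box (TTACGTAA or TTATGTAA, 1.06% of windows) and of the E-box-like CACGTT (4.68%) were in none of the 8 members' windows. The Usp2 window starts at 43995967, inside the span of the gene, so it belongs to a start site within the locus.

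Normalized counts are read counts after division by a factor for each library, and the libraries held 19892025 to 28936707 reads on genes. In livers of WT mice on NCD, the mean level per kilobase of transcript was highest for Tef (902.3 normalized counts per kilobase), Nfil3 (731), Bhlhe40 (686) and Hlf (399). Noct followed at 214, Dbp at 93.3 and Usp2 at 70.8 per kilobase. Ciart at 26.8 and Bhlhe41 at 5.81 normalized counts per kilobase were the lowest, with 9 to 37 reads of Ciart and 5 to 33 reads of Bhlhe41 in a mouse, so differences in these genes could be seen only if large. Klrk1, the deleted gene, checks the labels. It was at 0.966 to 8.71 normalized counts in the Klrk1-/- mice and 20.1 to 71.1 in the WT mice, with no overlap. WT mouse 1 on SSD stood apart most, with a mean correlation of 0.968 with its group where every other mouse had at least 0.979, and the members that passed in a comparison with it, and Noct, are also given without it.

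**Figure D1:**
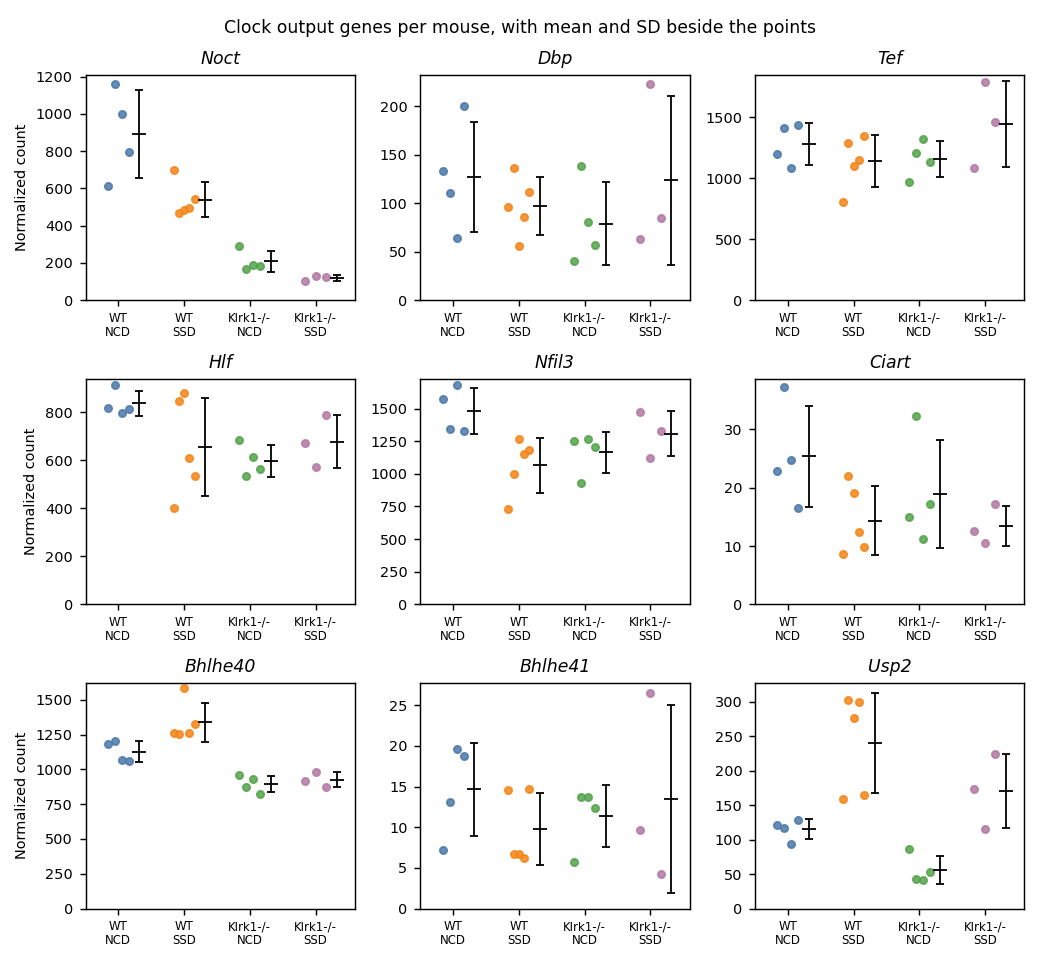
Normalized counts (vertical axes, each from 0) of the 9 members in each of the 16 mice by group, with the mean and SD beside the points. Noct is below 300 in all 7 Klrk1-/- mice and above 460 in all 9 WT mice, and Usp2 is higher on SSD in both genotypes.

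Noct, the nocturnin gene, ran more than 4-fold lower in the Klrk1-/- livers on either diet, and its mean was lower on SSD in both genotypes. The WT mice on NCD had 614, 1159, 999.8 and 797 normalized counts (mean 892 ± 238, SD, n = 4), and the WT mice on SSD had 701, 469.7, 486, 495 and 545 (539 ± 94.5, SD, n = 5). The Klrk1-/- mice on NCD had 293, 168, 189 and 182 (208 ± 57.3, SD, n = 4), and those on SSD had 102, 130.1 and 123 (118 ± 14.3, SD, n = 3). Every Klrk1-/- mouse was below every WT mouse. The group order was WT on NCD, WT on SSD, Klrk1-/- on NCD and Klrk1-/- on SSD, and the ratio of the highest mean to the lowest was 7.54. The 2 WT groups overlapped, since WT mouse 1 on NCD (614) was below WT mouse 1 on SSD (701), while the other neighbours in that order were apart.

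On the log2(normalized count + 1) scale, the Noct difference between Klrk1-/- and WT mice was -2.17 on SSD (standard error 0.14), a level 4.50 times lower. On NCD it was -2.09 (standard error 0.20), or 4.26 times lower. The difference between SSD and NCD was -0.70 in WT mice (standard error 0.18) and -0.78 in Klrk1-/- mice (standard error 0.18). The diet difference of the Klrk1-/- mice minus that of the WT mice was -0.08 (standard error 0.28). Without WT mouse 1 on SSD, the diet difference in WT mice was -0.80 and the genotype difference on SSD was -2.07. With every library scaled to the same total, the median of all genes moved by 0.34 between the diets in WT mice, and the Noct diet difference there became -0.36 (-0.52 in Klrk1-/- mice). The livers are mixed tissue, so fewer cells that make a transcript and less of it per cell cannot be told apart.

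The 4 genes named here whose log2 levels followed Noct most closely over the 16 mice were Slc10a2 (Pearson's r = 0.927), a bile acid transporter, Hspa4l (0.924), a chaperone of the heat shock family, Rcan1 (0.919), a regulator of calcineurin, and Paox (0.917), a polyamine oxidase. They are the closest of 13067 genes ranked, a description that rests largely on the group means. Slc10a2 averaged 899, 613, 432 and 221 normalized counts in WT on NCD, WT on SSD, Klrk1-/- on NCD and Klrk1-/- on SSD, the same order as Noct. Paox averaged 798, 230.5, 84.1 and 71.4 in that order. Of the 5 deadenylase relatives of Noct that were followed (Angel1, Angel2, Cnot6, Cnot6l and Pde12), Pde12 was the member to pass a test, lower on SSD in WT mice (-0.53, adjusted p = 0.00668) and lower in Klrk1-/- mice on NCD (-0.68, adjusted p = 0.0151), by limma with Benjamini-Hochberg adjustment over all genes. That is 1 of 5 in each, where 34.9% and 13.1% of all genes passed. No relative passed in either of the other comparisons.

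Diet in WT mice came next, where 2 of the 8 tested members passed an adjusted p of 0.05 in limma's test over all 13091 genes, against 34.9% of all genes. Usp2 rose, as 17.3% of all genes did, and Nfil3 fell, as 17.6% did. These shares hold for the authors' scaling, and with equal totals 6315 genes passed higher and 720 lower. The 2 diets did not overlap in 3 members (Usp2, Nfil3 and Bhlhe40), where they did not overlap in 29% of all genes. The median log2 difference of the 8 was -0.37, and that of all genes was -0.0015.

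Usp2, the ubiquitin protease gene, rose about 2-fold. It was at 122, 117, 93.9 and 128 normalized counts in the WT mice on NCD and at 159, 302, 277, 300.3 and 165 in those on SSD. Every SSD-fed mouse was above every NCD-fed mouse, and the log2 difference was 1.01 (standard error 0.21, adjusted p = 0.00395). It was 1.14 (adjusted p = 0.000663) without WT mouse 1 on SSD, and Usp2 passed under every one of the alternatives run in this comparison.

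Nfil3, the D-box repressor gene, was at 1573, 1343, 1681 and 1331 normalized counts on NCD and at 729, 996, 1266, 1149 and 1183 on SSD. The lowest value was that of WT mouse 1 on SSD, and the diets did not overlap. The log2 difference was -0.50 (standard error 0.15, adjusted p = 0.0233), and -0.37 (adjusted p = 0.0184) without that mouse. It no longer passed without WT mouse 1 on NCD (adjusted p = 0.0645), without WT mouse 3 on NCD (0.0722) or with equal totals (log2 difference -0.15, adjusted p = 0.341).

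Bhlhe40, a repressor gene of the E-box loop, was at 1179, 1203, 1065 and 1062 normalized counts on NCD and at 1263, 1253, 1583, 1261 and 1323 on SSD. The diets were apart in every mouse, but the log2 difference of 0.24 (standard error 0.09, adjusted p = 0.0573) missed the threshold. It passed with equal totals (0.59, adjusted p = 0.000356), quantile normalization (0.33, adjusted p = 0.0178), DESeq2 (0.25, adjusted p = 0.0372) and all 4 groups in 1 model (0.24, adjusted p = 0.025).

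The 3 PAR bZIP genes did not pass on SSD in WT mice. The log2 difference was -0.33 for Dbp (95% interval -0.998 to 0.35), -0.18 for Tef (-0.50 to 0.14) and -0.41 for Hlf (-0.84 to 0.01). Hlf was at 402, 846, 879, 609 and 536 normalized counts on SSD against 819, 914, 799 and 815 on NCD, and WT mouse 1 on SSD was again the lowest. Ciart had a log2 difference of -0.81 (adjusted p = 0.0892) and Bhlhe41 one of -0.54 (adjusted p = 0.328). Ciart passed with quantile normalization (-1.24, adjusted p = 0.0228), and Hlf passed without WT mouse 3 on SSD (-0.53, adjusted p = 0.0467). Without WT mouse 1 on SSD the differences were -0.33 for Dbp, -0.06 for Tef, -0.25 for Hlf, 0.26 for Bhlhe40, -0.66 for Ciart and -0.70 for Bhlhe41, and the same 2 members passed.

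Diet in the Klrk1-/- mice moved Usp2 alone among the 8, so 1 of 8 passed where 29.4% of all genes passed and 13.4% passed higher. With equal totals 5 of 8 passed, where 43.7% of all genes did (4828 higher and 806 lower). Usp2 was at 86.2, 43.6, 41 and 52.9 normalized counts on NCD and at 173, 116 and 224 on SSD. The groups did not overlap, the log2 difference was 1.61 (standard error 0.27, adjusted p = 0.00114), and Usp2 passed under every alternative run here too. Usp2 is the member whose groups were apart, against 37.6% of all genes, and the median log2 difference of the 8 was 0.17, beside -0.002 over all genes.

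Nfil3 gave 1252, 931, 1270 and 1207 normalized counts on NCD and 1471, 1124 and 1329 on SSD in these mice, a log2 difference of 0.17 (95% interval -0.10 to 0.44). Tef differed by 0.30 (-0.03 to 0.64), Hlf by 0.17 (-0.10 to 0.44) and Bhlhe40 by 0.05 (-0.14 to 0.24). With equal totals, which moved the median of all genes by 0.25, the last 4 named genes passed as well, at log2 differences of 0.43, 0.56, 0.43 and 0.30. Tef also passed without Klrk1-/- mouse 1 on SSD (0.49, adjusted p = 0.0277).

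**Figure D2:**
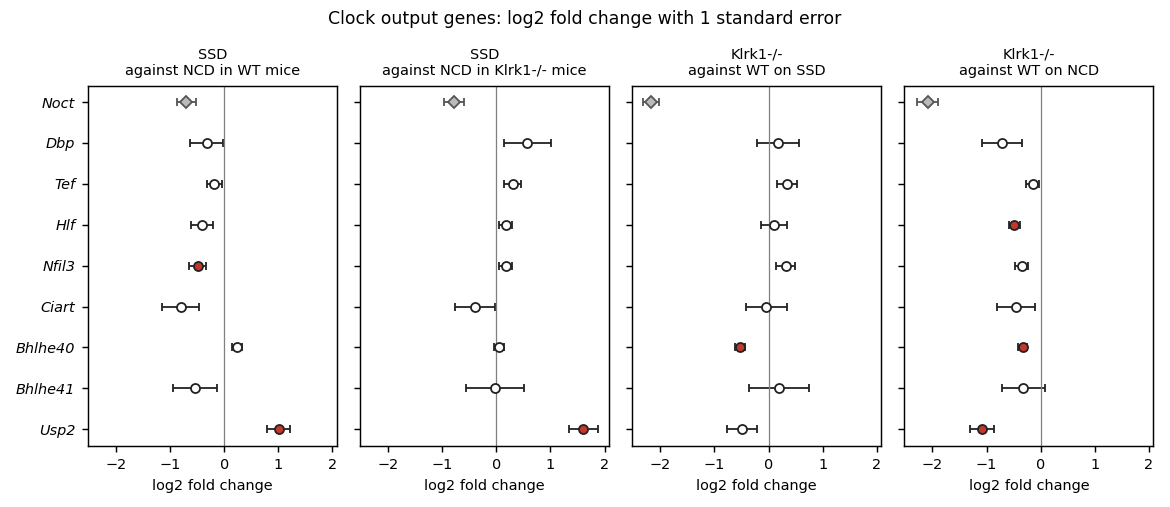
Log2 fold change (horizontal axes, 1 unit is a doubling) of each member in the 4 comparisons, with bars of 1 standard error. Red points passed an adjusted p of 0.05, white points did not, and the grey diamonds are Noct, which was not tested. Noct lies near -2 in both genotype comparisons, and Usp2 is above 1 in both diet comparisons.

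Genotype on SSD was passed by 1 of the 8 members, where 2.9% of all genes passed and 1.68% passed lower. Bhlhe40 was at 919, 979.7 and 873 normalized counts in the Klrk1-/- mice on SSD, below all 5 WT mice on that diet. The log2 difference was -0.53 (standard error 0.09, adjusted p = 0.0216), and -0.55 (adjusted p = 0.0111) without WT mouse 1 on SSD. It was lost without Klrk1-/- mouse 1 (adjusted p = 0.107), mouse 2 (0.0626) or mouse 3 (0.0971) on SSD, which leaves 2 mice, and without the variance trend (0.0545), with its size between -0.64 and -0.47 in every alternative. Bhlhe40 is also the member whose groups were apart, where 17.9% of all genes were, and the median of the 8 was 0.14 beside -0.001 over all genes.

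Macrophages also express Bhlhe40, and their markers were read beside it. The summed level of 5 markers (Adgre1, Cd68, Csf1r, Clec4f and Lyz2) was 4782 to 11344 normalized counts in WT mice on SSD, 4069 to 5043 in Klrk1-/- mice on SSD, 3932 to 4634 in WT mice on NCD and 3531 to 4300.1 in Klrk1-/- mice on NCD. The value of 11344 was that of WT mouse 1 on SSD, and the median of that group was 5597. Of the 5, 1 passed lower in Klrk1-/- mice on SSD (Cd68), where 1.68% of all genes did. On SSD 2 passed higher in WT mice (Cd68 and Adgre1), beside 17.3% of all genes, and 1 in Klrk1-/- mice (Adgre1), beside 13.4%. Cd68 also passed the test of the diet by genotype interaction, as 0.88% of all genes did, with a smaller difference between diets in Klrk1-/- mice. No marker was at the floor of 3 reads throughout a group. The part of these cells in the Bhlhe40 difference was not tested.

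The other 7 tested members overlapped between genotypes on SSD. Usp2 had a log2 difference of -0.49 (95% interval -1.10 to 0.13), Nfil3 of 0.31 (-0.06 to 0.69) and Tef of 0.34 (-0.08 to 0.76). Hlf differed by 0.10 (-0.43 to 0.62), Dbp by 0.18 (-0.68 to 1.05), Ciart by -0.04 (-0.87 to 0.80) and Bhlhe41 by 0.20 (-1.04 to 1.43). The intervals of the last 3 are wide enough to hold a change of more than 1.5-fold in either direction.

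Genotype on NCD was passed by 3 of the 8 members, all lower in Klrk1-/- mice, where 13.1% of all genes passed and 6.66% passed lower. The groups were apart in 4 members (Usp2, Hlf, Bhlhe40 and Nfil3), where 19.3% of all genes were. The median log2 difference of the 8 was -0.40, beside 0.0018 over all genes.

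Usp2 fell to 0.472 of its WT level, from 93.9 to 128 normalized counts in the WT mice to 41 to 86.2 in the Klrk1-/- mice, without overlap. The log2 difference was -1.08 (standard error 0.22, adjusted p = 0.00905), and it passed under every alternative run. Hlf, the PAR bZIP gene, fell from 819, 914, 799 and 815 to 684, 533, 616 and 562 normalized counts, a log2 difference of -0.49 (standard error 0.10, adjusted p = 0.00932), which was lost with all 4 groups in 1 model (adjusted p = 0.0829). Bhlhe40 fell from 1062 to 1203 in WT mice to 957, 875, 928 and 820.4, a log2 difference of -0.33 (standard error 0.09, adjusted p = 0.0292). That call was lost without WT mouse 1 (0.0585) or 2 (0.0706), without Klrk1-/- mouse 2 (0.0781), 3 (0.0548) or 4 (0.0709), and without the variance trend (0.0624).

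Nfil3 was lower by 0.35 in Klrk1-/- mice on NCD without overlap, but missed the threshold (adjusted p = 0.0649), which it passed with DESeq2 (0.0387), with equal totals (0.0494) and without WT mouse 5 (0.0466). Tef differed by -0.15 (95% interval -0.40 to 0.11). Dbp differed by -0.71 (-1.50 to 0.08), Ciart by -0.45 (-1.20 to 0.29) and Bhlhe41 by -0.32 (-1.19 to 0.54).

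Single values were also compared by an exact two-sided permutation test, whose smallest possible p is 0.0159 for diet in WT mice, 0.0571 for diet in Klrk1-/- mice, 0.0357 for genotype on SSD and 0.0286 for genotype on NCD. Members whose groups were apart reached that smallest p, and diet in Klrk1-/- mice cannot reach 0.05 by this test.

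A diet response that differed between genotypes was not seen at the threshold in any of the 8 members, where 0.88% of 13068 genes passed limma's interaction test over all 16 mice. The count was 0 with edgeR and DESeq2 as well. Nfil3 came nearest, with a diet difference 0.66 higher in Klrk1-/- mice (95% interval 0.21 to 1.12, unadjusted p = 0.0068, adjusted p = 0.141), and Hlf followed at 0.58 (unadjusted p = 0.0422, adjusted p = 0.274). Those are 2 of 8 at an unadjusted p under 0.05, beside 17.3% of all genes. The interval for Usp2 was -0.19 to 1.39 and that for Dbp -0.36 to 2.15, so differences of more than 2-fold between genotypes stay within the error.

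Dbp is the output gene with the widest daily swing in mouse liver, and here its range within each group was wider than the gap between the group means. It was at 133, 111, 63.9 and 199.7 normalized counts in WT mice on NCD, at 95.7, 136, 56.1, 86.2 and 112 in WT mice on SSD, at 40.2, 138, 80.8 and 56.6 in Klrk1-/- mice on NCD and at 62.8, 223 and 84.9 in Klrk1-/- mice on SSD. All 4 groups overlapped, and the ratio of the highest group mean to the lowest was 1.61. Over the 16 mice Dbp ran closest to Dact1 (r = 0.811), Zfp872 (0.725), Igbp1 (0.706), Gtf2b (0.692) and Alg1 (0.680), of 13067 genes ranked. Per3, a clock gene, came at rank 8 (0.653) and Tef at rank 11 (0.641). At the other end, Npas2 was at rank 13064 (-0.721) and Arntl, the BMAL1 gene, at rank 13066 (-0.745). Most of the other members and core clock genes looked up lay between these ends. Of members, Bhlhe41 was at 0.470, Noct at 0.113, Bhlhe40 at 0.0825, Usp2 at 0.0561, Ciart at 0.0491, Hlf at -0.0321 and Nfil3 at -0.235. Of core clock genes, Nr1d2 was at 0.506, Nr1d1 at 0.136, Per2 at 0.0854, Per1 at -0.0515, Clock at -0.157, Cry2 at -0.194, Cry1 at -0.212 and Rora at -0.595. Mice of 1 group share genotype and diet, and no test was made of these values.

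**Figure D3:**
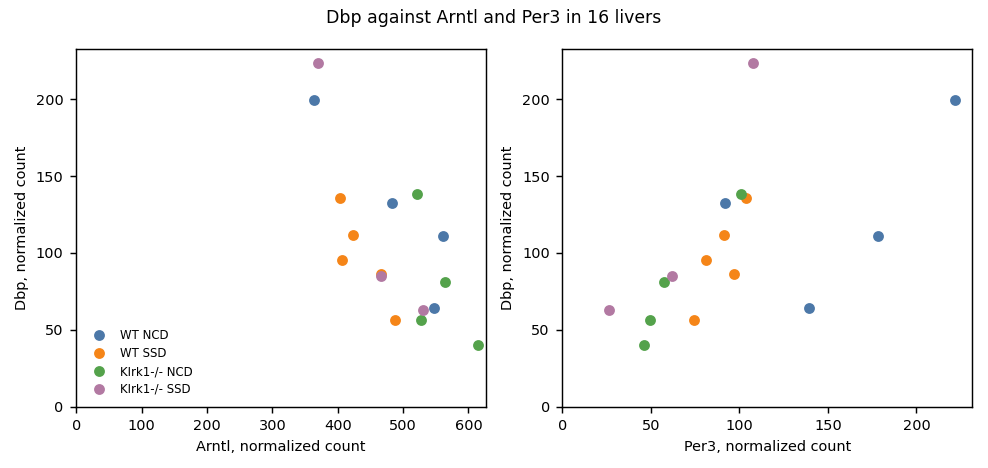
Dbp against Arntl (left) and against Per3 (right), in normalized counts with axes from 0, 1 point per mouse in the colour of its group. The 2 mice with the highest Dbp (199.7 and 223) have the lowest Arntl (364 and 369), and mice of all 4 groups lie across the range.

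Within groups, deviations of each member from its group mean were compared for all 36 pairs of members over 16 mice by a permutation test, adjusted by Benjamini-Hochberg. The 36 include 8 pairs with Noct, of which 0 passed. Bhlhe41 and Usp2 deviated in opposite directions (Pearson's r = -0.858, p = 0.00091, adjusted p = 0.0328, and Spearman's rho = -0.856, p = 0.00116, adjusted p = 0.0418, with r = -0.838 without the 2 mice farthest out). Bhlhe41 rests on few reads, and the pair missed the threshold when most single mice were left out. Hlf and Usp2 (r = 0.740, adjusted p = 0.0834, rho = 0.788, adjusted p = 0.0848), Dbp and Tef (r = 0.650, adjusted p = 0.133, rho = 0.750, adjusted p = 0.0643) and Dbp and Nfil3 (r = -0.613, adjusted p = 0.123, rho = -0.624, adjusted p = 0.108) did not pass. Hlf and Bhlhe41 (r = -0.646, adjusted p = 0.0834, rho = -0.756, adjusted p = 0.0742) did not pass either.

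The core clock, the loop that drives these genes, was followed in 12 genes fixed as a list. Of the positive arm, Arntl, Clock and Rora passed in no comparison in the test as run with the authors' scaling. On SSD in WT mice, where 34.9% of all genes passed, 3 core genes rose and 3 fell: Npas2, a partner of BMAL1, by 0.61, Per1 by 0.74 and Nr1d2, the gene of the repressor REV-ERB beta, by 0.52, against falls in Per2 of -1.46, Per3 of -0.75 and Cry2 of -0.76 (adjusted p between 0.000243 and 0.0219, limma). Per2 went from a mean of 849 to 307 normalized counts. In Klrk1-/- mice 1 of 12 passed beside 29.4% of all genes (5 of 12 with equal totals, beside 43.7%), Per2, from 364 to 173 (log2 difference -1.07, adjusted p = 6.64e-05). The core clock counts set beside the members here come from the same mice and the same control groups.

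Between genotypes, 2 of 12 core genes passed on SSD beside 2.9% of all genes, Per1 (-1.24, adjusted p = 0.0148) and Per2 (-0.80, adjusted p = 0.0476), both lower in Klrk1-/- mice. On NCD, 4 passed beside 13.1% of all genes: Npas2 (0.64, adjusted p = 0.0104) and Nr1d1, the REV-ERB alpha gene (1.22, adjusted p = 0.0113), were higher in Klrk1-/- mice, and Per2 (-1.19, adjusted p = 0.00117) and Per3 (-1.30, adjusted p = 0.0124) were lower. Nr1d1 was at 1281 to 3573 normalized counts in the Klrk1-/- mice on NCD and 778 to 1346 in the WT mice. On SSD it was also higher in Klrk1-/- mice, at 1687 to 2708 against 762 to 1503 without overlap. That difference of 0.91 missed the threshold (adjusted p = 0.0606, limma). Groups were apart on SSD in 4 of the 12 core genes, where 17.9% of all genes were. In the interaction 0 of 12 passed by limma, 2 (Npas2 and Cry2) had an unadjusted p under 0.05, as 17.3% of all genes did, and DESeq2 called 1, beside 3.52% of all genes. Csnk1e, a clock kinase gene, passed higher in both diet comparisons (0.89 in WT mice, 0.41 in Klrk1-/- mice) and in Klrk1-/- mice on NCD (0.56).

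**Figure D4:**
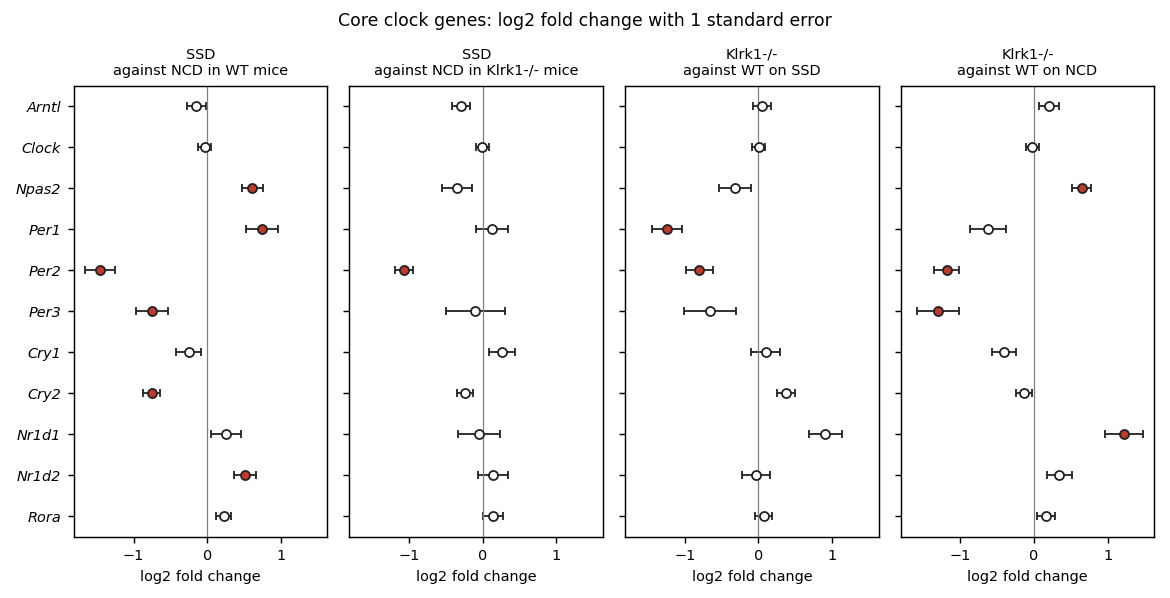
Log2 fold change (horizontal axes) of core clock genes in the 4 comparisons, with bars of 1 standard error, red where an adjusted p of 0.05 was passed. Per2 is lower in all 4 comparisons, and Arntl, Clock and Rora passed in none.

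Targets of the PAR bZIP factors in liver were followed as 7 genes for detoxification and bile acids. On SSD in WT mice 3 rose and 1 fell (34.9% of all genes passed). In Klrk1-/- mice 4 rose and 1 fell (29.4%). Dbp, Tef and Hlf passed in neither. The 3 in WT mice include Cyp2a4, which averaged 2.84 normalized counts on NCD and 299.6 on SSD. Cyp2a4 met the minimum mean there through the SSD mice alone, so no weight is put on its p in that comparison. Por, the electron donor of the P450 enzymes, rose by 0.95 in WT mice (adjusted p = 5.39e-05) and by 1.70 in Klrk1-/- mice (adjusted p = 3.33e-08), and is the gene of the 7 that passed the interaction test (0.74, adjusted p = 0.0156). Cyp7a1, the rate-limiting enzyme of bile acid synthesis, fell by 1.02 and by 0.95 (adjusted p = 0.0416 and 0.00414). Between genotypes on SSD, 2 were higher in Klrk1-/- mice, Por (0.59, adjusted p = 0.0185) and Cyp2a5 (0.73, adjusted p = 0.033), and Cyp7a1 was lower (-1.42, adjusted p = 0.0114), beside 2.9% of all genes. On NCD 13.1% of all genes passed. Cyp2a4 was at 7.47 to 35.7 normalized counts in Klrk1-/- mice and 1.21 to 5.52, from 1 to 5 reads, in WT mice. With 3 of the 4 WT mice at the floor, it met the minimum mean through the Klrk1-/- mice alone. Its adjusted p of 0.00813 by limma is therefore not read as a call. Its reads can also be split with those of its near copy Cyp2a5. Alas1, which starts heme synthesis, was lower in Klrk1-/- mice by 1.54 (adjusted p = 0.0138), as was Cyp7a1 (-1.49, adjusted p = 0.0185), on that diet.

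Genes that answer to feeding were read beside the members because meal timing moves the liver clock. Of genes of the fed state, Pnpla3 and Fasn fell on SSD in both genotypes, and Srebf1 rose on SSD in Klrk1-/- mice. Of 7 genes of fasting, 2 rose on SSD in WT mice (Pdk4 and Angptl4), where 34.9% of all genes passed, and 4 in Klrk1-/- mice (G6pc, Igfbp1, Irs2 and Pdk4), where 29.4% did. On NCD, where Hlf, Bhlhe40 and Usp2 were lower in Klrk1-/- mice and 13.1% of all genes passed, 1 fasting gene was higher (Ppargc1a, 1.28) and 3 were lower (G6pc -1.49, Igfbp1 -1.29, Irs2 -0.83). The part of feeding in the members' differences was not tested. Hepatocyte markers also moved with diet, at a summed level of 1422370 to 1835820 normalized counts in WT mice on SSD against 2247260 to 2563160 on NCD, with 3 of 5 passing lower beside 17.6% of all genes. In Klrk1-/- mice the sum was 1941470 to 2088020 on SSD against 2178850 to 2916370 on NCD. There 4 of 5 passed lower, where 2067 of 12904 genes passed lower and 29.4% passed in either direction. Of markers of other liver cells, 3 of 4 endothelial and 2 of 4 stellate cell markers passed higher on SSD in WT mice, beside 17.3% of all genes, and 1 of 4 endothelial and 3 of 4 stellate cell markers in Klrk1-/- mice, beside 13.4%. The summed endothelial level was 3005 to 3756 normalized counts on SSD against 1887 to 3202 on NCD in WT mice, and 2785 to 3655 against 2656 to 3094 in Klrk1-/- mice. The summed stellate cell level was 4321 to 10539 against 3526 to 4638 in WT mice, and 5507 to 6409 against 3777 to 4806 in Klrk1-/- mice. The value of 10539 was that of WT mouse 1 on SSD, and the median of that group was 5543. The part of these cells in the members' diet differences was not tested. Of 4 cholangiocyte markers, 1 passed lower in Klrk1-/- mice on NCD (Krt19), beside 6.66% of all genes, with a median log2 difference of -0.93 and a summed level of 201 to 255 normalized counts against 229 to 354 in WT mice. On SSD the sum was 231 to 288 in Klrk1-/- mice, where 1 marker passed higher than on NCD (Epcam), and 199 to 411 in WT mice, where none passed. On NCD 1 of 4 endothelial markers (Stab2) passed higher and 1 of 5 hepatocyte markers (Tat) lower in Klrk1-/- mice, and their part in the lower Usp2, Hlf and Bhlhe40 was not tested either.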

How the data were processed

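Whole-liver RNA of 16 mice was sequenced as single reads, and the authors aligned it to GRCm39 with STAR and counted it per gene with FeatureCounts on GENCODE. The authors deposited a signal per gene and library, the read count after division by a library factor (a normalized count). Dividing by each library's smallest step gave back whole reads, to within 0.05 reads. The table also holds the fraction of G and C bases per gene, taken by the authors from their annotation, and gene length in bases, used here for levels per kilobase. The library kit is named as total RNA in the methods and as mRNA in the labels. Columns of the authors' comparisons were not used.

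The members and gene lists were chosen with earlier results of these data known. Tests used limma 3.58.1 in R 4.3.3 with a variance trend on log2(normalized count + 1), for genes whose mean over the mice of the fit reached 10, with the compared groups in each fit and Benjamini-Hochberg adjustment over every gene tested. A member passed at an adjusted p under 0.05 with no fold limit. Named genes were the 9 members, genes of the fixed lists, and the 5 genes nearest to Noct and to Dbp. A few genes of these lists are not reported here. Motifs were counted as exact letters, with no test. Each mouse is its own animal, and intervals come from limma's moderated spread. The alternatives changed the pseudocount to 0.5 or 10, the minimum mean to 50 or nothing, and also dropped the variance trend, scaled libraries to equal totals or by quantiles, used edgeR 4.0.16 or DESeq2 1.42.0 on the reads, blocked on replicate number, fitted all 4 groups together, set fold limits of 1.5 and 2 and left out each mouse. On simulated data with 2-fold changes, limma recovered 91.9% of the changed genes for diet in WT mice (13164 genes), 81% for diet in Klrk1-/- mice (12858), 90.9% for genotype on SSD (13243), 91% for genotype on NCD (12702) and 54% for the interaction (13100). The simulation gave every gene the same dispersion between mice and scaled the libraries exactly. These shares therefore do not apply to members that vary more, such as Dbp (mean 127, SD 56.5 normalized counts in WT mice on NCD). Replicate libraries differed by more than sampling noise (chi-square of 14.2 to 100.8 per gene over 25 pairs).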

Additional observations from a re-analysis of the deposited data

Results flagged for a closer look

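In a check for a mouse far from the rest of its group, 2 of 27 groups of 4 or 5 mice over the 9 members had one, where chance gives about 1 in 20. Noct in Klrk1-/- mouse 1 on NCD was at 293 normalized counts, while the other 3 mice of that group were at 168 to 189. Bhlhe40 in WT mouse 3 on SSD was at 1583, while the other 4 were at 1253 to 1323.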

How the results depend on the processing

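Usp2 passed under every alternative for both diet comparisons and for genotype on NCD. For diet in WT mice, the count of members passing was 4 with quantile normalization (31.5% of all genes), 1 with a fold limit of 1.5 (19.3%) or 2 (9.01%) and 1 to 3 with a mouse left out (27.5% to 34.2%), and the core clock count was 1 with a fold limit of 2. For diet in Klrk1-/- mice, equal totals gave 5 members and 5 core clock genes beside 43.7% of all genes, and leaving out a mouse gave 1 to 2 of each beside 18.6% to 28.4%. For genotype on SSD, 0 members passed without the variance trend and with either fold limit (1.15% to 2.13% of all genes), 2 with the replicate block (5.41%) and 0 to 1 with a mouse left out (0.342% to 5.49%), and 1 core clock gene passed with a pseudocount of 10, no minimum mean, no variance trend, quantile normalization, edgeR or a fold limit of 2 (1.15% to 2.37% of all genes), and 0 to 3 with a mouse left out. For genotype on NCD, 1 member passed with either fold limit (5.79% and 1.7% of all genes). DESeq2 called 1 core clock gene in the interaction beside 3.52% of all genes. Of the 36 pairs of members, 2 passed with equal totals and 0 to 3 with a mouse left out. The causes were not tested. The near-zero interaction value of Noct ran from -0.22 to 0.10, and 21 further values of tested members changed sign without passing the threshold in either fit.

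The replicate number does not mark shared animals, and same-numbered mice did not deviate together (correlations of -0.15 to 0.24), so the block stands only as an alternative. Under it Tef joined Bhlhe40 for genotype on SSD (0.44, adjusted p = 0.0422), and on NCD Nfil3 passed (adjusted p = 0.0198) while Bhlhe40 did not (adjusted p = 0.06).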
